A study of Homo sapiens with 8 samples.

Results

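The signal recognition particle (SRP) was examined through its RNA, RN7SL1, and 6 of its protein genes, SRP9, SRP14, SRP19, SRP54, SRP68 and SRP72, in 8 two-color microarray hybridizations of human cancer cell lines. The members were every non-control probe that the array annotation assigned to these 7 symbols, which gave 11 probes of 58201 on the array (7 of 43317 gene names). The set was chosen on the same ratios that are described here, because RN7SL1 lay above its mock on all 8 arrays. The ratios of the members are therefore given as a description with no test. All 11 probes had at least 1 channel well above background on every array, a filter passed by 24111 probes in all.

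Each array compared untransfected cells (mock, labelled with Cy3) with transfected cells of the same line (labelled with Cy5). PC3 (prostate cancer) received an siRNA against PIR, si-PIR-2 on 1 array and si-PIR-3 on another. SK-MES-1 (lung squamous cell carcinoma) received miR-144-5p or miR-144-3p, PANC1 (pancreatic cancer) received miR-130-5p or miR-130-3p, and SW1990 (pancreatic cancer) and MDA-MB-231 (breast cancer) each received miR-204-5p. All transfections used Lipofectamine RNAiMAX, and the mock received neither an oligonucleotide nor, per the labels, any transfection, so an effect of transfection itself cannot be told apart from that of the oligonucleotide. The dyes were not swapped, so a dye effect of a single probe and the transfection cannot be told apart either.

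All 8 arrays lay on 1 slide. Between 41.4% and 46.4% of probes were well above background in Cy3, and between 49.8% and 54.6% in Cy5. PIR, the siRNA target, had log2 ratios of -5.46 with si-PIR-2 and -4.27 with si-PIR-3. The PANC1 miR-130-5p array stood apart, with a standard deviation of log2 ratios over passing probes of 0.64 against 0.36 to 0.49 on the others. Of 6 markers listed for each line, 4 had a probe above background in the mock of PC3 (not KLK3 and KLK2), 3 in SK-MES-1 (not KRT5, KRT6A and DSG3), and 5 each in SW1990, PANC1 (not PDX1) and MDA-MB-231 (not PGR). Per the labels these were cultured lines, and in bulk RNA a change in the mix of cells cannot be told apart from a change in the RNA per cell.

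SRP is a ribonucleoprotein that binds the signal sequence of a secretory or membrane protein as it leaves the ribosome and delivers the translating ribosome to the endoplasmic reticulum. Its scaffold is the 7SL RNA, transcribed by RNA polymerase III, and RN7SL1 is a gene of this RNA. SRP9 and SRP14 bind the Alu domain of 7SL as a dimer and slow elongation. SRP19, SRP54, SRP68 and SRP72 bind the S domain, where SRP54 recognizes the signal sequence and hydrolyses GTP at the SRP receptor. The 7SL RNA lacks a poly(A) tail, whereas the labelling kit used here primes from such tails. How 7SL entered the labelled material was not tested.

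RN7SL1 was read by a single 60-base probe with 1 spot per array, in the noncoding transcript on chromosome 14 that RefSeq lists with a length of 299 bases (GRCh38.p14). The annotation pairs the same probe with the near-identical RN7SL2, and RefSeq lists 684 RN7SL pseudogenes, so the signal cannot be assigned to RN7SL1 alone. The probes of SRP54, SRP68 and SRP72 are shown in lower case, since they read exons of the protein genes of the S domain, among which the ratios of SRP72 varied most.
SRP54: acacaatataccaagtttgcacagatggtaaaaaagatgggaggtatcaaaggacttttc
SRP68: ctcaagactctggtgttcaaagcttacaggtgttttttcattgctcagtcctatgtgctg
SRP72: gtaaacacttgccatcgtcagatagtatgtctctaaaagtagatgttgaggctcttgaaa

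In hg19 the SRP54 probe maps to chr14:35492223-35492282, the SRP72 probe to chr4:57357602-57357661, and the SRP68 probe to chr17:74040009-74041401 on the reverse strand, where a span longer than the probe shows that it crosses a splice junction. The GC content was 55.0% for the RN7SL1 probe, 43.3% for SRP68, 38.3% for SRP72 and 36.7% for SRP54, against a median of 45.0% over passing probes.

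Mature sequences of the transfected miRNAs are given from RefSeq (GRCh38.p14) to identify the treatments, with the seed (bases 2 to 8) in capitals. The label miR-130 does not say whether miR-130a or miR-130b was used, and no sequence is given for it.
miR-144-5p: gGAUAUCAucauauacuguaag
miR-144-3p: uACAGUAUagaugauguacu
miR-204-5p: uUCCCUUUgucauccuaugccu
The 3 seeds differ from each other. miR-144-5p and miR-144-3p are the arms of 1 hairpin on chr17 (28861583 to 28861604 and 28861548 to 28861567), and miR-204-5p lies on chr9 (70810031 to 70810052).

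RN7SL1 had the highest ratios of transfected over mock in PC3. The log2 ratio, with the error given by the scanner software, was 2.47 ± 0.31 with si-PIR-2 and 2.03 ± 0.28 with si-PIR-3, which gave a mean of 2.25 ± 0.31 (SD, n = 2 arrays, 1 per siRNA), or 4.76-fold. On the scanner's raw scale, before the dyes are brought to a common scale and so not to be read as a ratio, the mean signal was 5104 in the mock and 68078 after si-PIR-2, and 5667 in the mock and 44598 after si-PIR-3. These were the 8th and the 25th highest ratios of 24111 passing probes. The difference between the siRNAs, 0.44, was about as large as the combined software error of the arrays, 0.41, and 33.4% of passing probes differed as much.

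SW1990 with miR-204-5p came next, with a log2 ratio of 1.18 ± 0.23. MDA-MB-231 with the same miRNA had 0.50 ± 0.21. Each line was represented by a single array, and how many passing probes differed as much between these arrays was not counted. No difference between the lines is therefore read from these values. In PANC1 the log2 ratio was 0.46 ± 0.21 with miR-130-5p and 0.64 ± 0.21 with miR-130-3p, and the difference of 0.18 was below the combined error of 0.30.

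SK-MES-1 showed the lowest ratios. They were 0.05 ± 0.20 with miR-144-5p and 0.16 ± 0.20 with miR-144-3p, both within the software error of 0. The sign of RN7SL1 was thus positive on 8 of 8 arrays, and its distance from 0 was beyond 1 error, and also beyond 2 errors, on 6 of 8. Of all values of passing probes, 51% were beyond 1 error, and no such share is given for 2 errors. The rank of RN7SL1 from the top among 24111 passing probes was 309 in SW1990, 2126 in MDA-MB-231, 1723 with miR-130-3p and 5604 with miR-130-5p. In SK-MES-1 it was 6903 with miR-144-3p and 11507 with miR-144-5p.

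**Figure D1:**
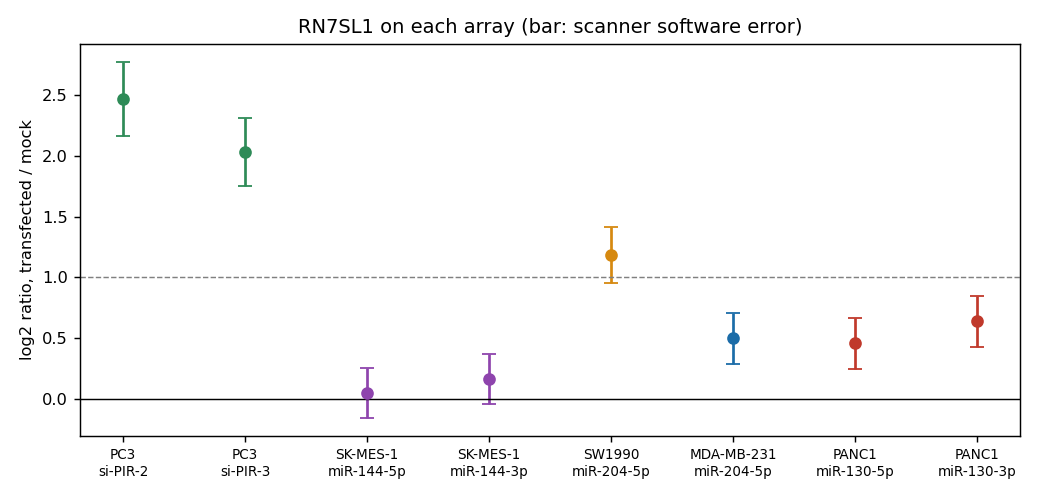
Log2 ratio of transfected over mock for the RN7SL1 probe on each of the 8 arrays, colored by cell line. Bars are the scanner software error of that spot, and the dashed line marks a log2 ratio of 1. The PC3 arrays lie at 2.47 and 2.03, the SW1990 array at 1.18, and the bars of both SK-MES-1 arrays reach 0.

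A log2 ratio above 1 was found for RN7SL1 on 3 arrays. Over all passing probes, 2.25% were above 1 with si-PIR-2, 1.47% with si-PIR-3 and 2.14% in SW1990, and 0.311% were above 1 on both si-PIR arrays. RN7SL1 was below 1 on the other arrays. There the share of probes above a log2 ratio of 1 was 1.56% with miR-144-5p and 1.29% with miR-144-3p. It was 1.62% in MDA-MB-231, 5.04% with miR-130-5p and 2.58% with miR-130-3p. Of the 11 member probes, only RN7SL1 lay above 0 on all 8 arrays, against 4.63% of passing probes, and only a dim SRP19 probe lay below 0 on all 8, against 3.03%. Since RN7SL1 was chosen by its ratios, nothing is read from these shares.

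The RN7SL1 spot was very bright, and for bright spots the ratio depended on the dye normalization. After background correction by normexp and centring of each array on its median, with no correction for intensity, the si-PIR mean was 3.30 and the SK-MES-1 values were 0.99 with miR-144-5p and 0.93 with miR-144-3p. The same setting moved the mean over 8 arrays of SRP14 from 0.04 to 0.95. SRP14 is about as bright as RN7SL1 in the mean over arrays and channels, but not on each array. The median over passing probes of each array also moved, to between 0.16 and 0.44.

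The difference between RN7SL1 and SRP14 on the same array, added after the data were examined, was less dependent on this choice. A shift that depends on intensity largely cancels between probes of like brightness, so this does not show that the RN7SL1 ratio itself is stable. The brightness was less alike in PC3. On the si-PIR-2 array the raw mock signal was 5104 for RN7SL1 and 20153 for SRP14, and the transfected signals were 68078 and 45696. The difference between the log2 ratios of RN7SL1 and SRP14 was 2.62 with si-PIR-2, 1.91 with si-PIR-3 and 1.14 in SW1990. It was 0.42 in MDA-MB-231, 0.53 with miR-130-5p and 0.52 with miR-130-3p. In SK-MES-1 it was -0.01 with miR-144-5p and 0.02 with miR-144-3p, both much smaller than the software error of either probe. With median centring the si-PIR mean of the difference was 2.18, against 2.26 ± 0.50 (SD, n = 2 arrays) with the scanner ratio.

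**Figure D2:**
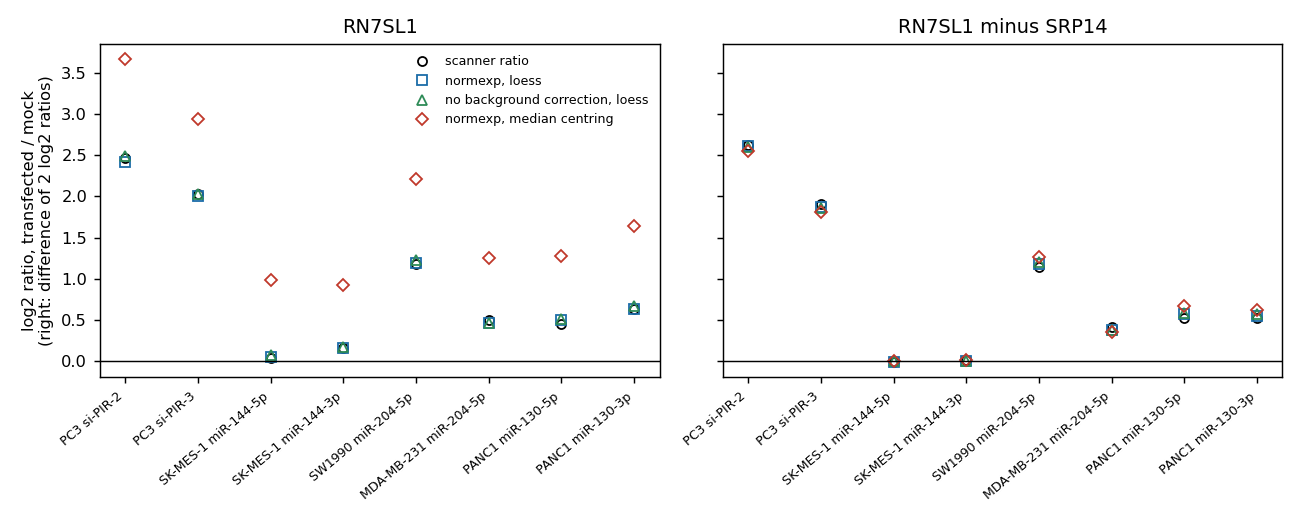
Left, log2 ratio of RN7SL1 on each array under 4 ways of background correction and normalization. Right, the same ratio minus that of SRP14. Median centring lies above the others on the left, with a si-PIR mean of 3.30 against 2.25. The settings lie close together on the right, where a shift shared by both probes cancels.

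The level of RN7SL1 was also compared between arrays within each channel, where the mock holds untransfected cells and not the transfected cells at an earlier time. The level was taken as the log2 signal minus the 75th percentile of that channel. In the mock it was 9.34 ± 0.19 in PANC1 (SD, n = 2 arrays), 8.35 in SW1990, 8.28 ± 0.01 in SK-MES-1 (n = 2 arrays), 7.42 in MDA-MB-231 and 6.81 ± 0.07 in PC3 (n = 2 arrays). SW1990 and SK-MES-1 did not differ by more than 2 times the pooled SD between arrays of a line (0.12), and the other neighbours in this order did. Whether the mock RNA of a line on its 2 arrays came from separate cultures is not given in the sources used here. The pooled SD may therefore not cover the spread between cultures, and SW1990 and MDA-MB-231 had a single array each.

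The mock level of the highest line was 5.76-fold that of the lowest, and 14.9% of passing probes had a range between lines at least as large. In the transfected channel the PC3 arrays lay at 9.25 with si-PIR-2 and 8.91 with si-PIR-3. These levels lay above those of transfected SK-MES-1 (8.34 and 8.43) and MDA-MB-231 (7.91), and below those of SW1990 (9.54) and PANC1 (9.94 and 9.85). PC3 was thus the lowest of the 5 lines in the mock and in the middle of them in the transfected channel. The range over 8 arrays was 2.71 in the mock and 2.03 after transfection. The mock of PC3 is the denominator of both si-PIR ratios, so its low level and the high ratios are not separate observations.

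**Figure D3:**
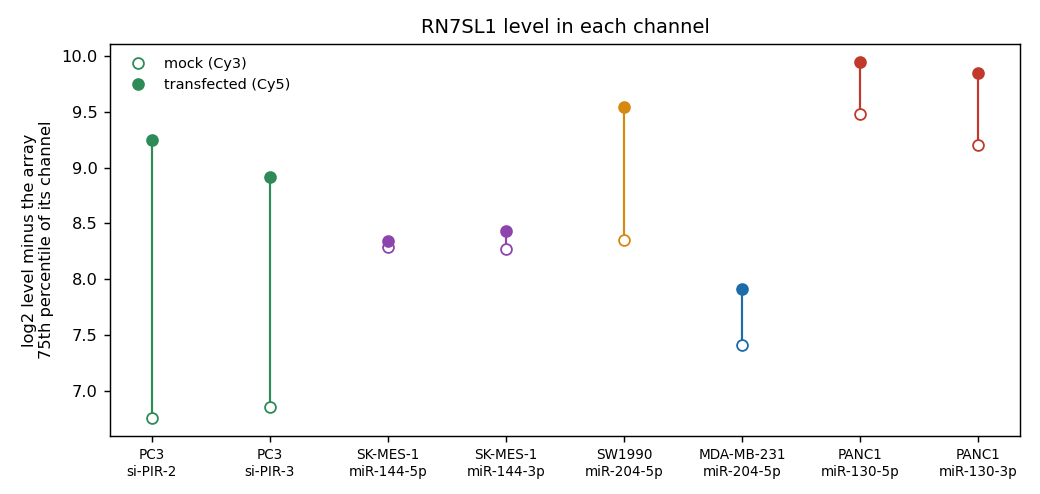
RN7SL1 level on each array in the mock (open points) and transfected (filled points) channels, as log2 signal minus the 75th percentile of the channel. The mock of PC3 lies lowest, at 6.81 on average, and the transfected PC3 samples lie at 9.25 and 8.91, between those of SK-MES-1 and SW1990.

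None of the protein probes lay above 0 on all 8 arrays. Of 80 ratios, from 10 protein probes on 8 arrays, 35 were above 0 and 45 below, with a median of -0.04. None was above 1 and 1 was below -1, against 2.24% above 1 and 1.96% below -1 of all values of passing probes. The software error was exceeded by 31 of 80 (38.8%), against 51% of all values of passing probes.

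SRP14, a subunit of the Alu domain dimer, had the narrowest range. Its log2 ratios were -0.15 with si-PIR-2, 0.12 with si-PIR-3, 0.06 with miR-144-5p, 0.15 with miR-144-3p, 0.04 in SW1990, 0.08 in MDA-MB-231, -0.07 with miR-130-5p and 0.11 with miR-130-3p. All 8 lay within the software error of 0. SRP14 is one of the brighter member probes, so a low signal does not limit this result.

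SRP9, the partner of SRP14, was read by 3 probes with similar patterns over the arrays. Pearson's r was between 0.95 and 0.99 over the 8 arrays, of which those of the same line may share mock RNA. Its brightest probe had a lowest log2 ratio of -0.15 with miR-130-5p, a median of 0.00 and a highest of 0.45 with miR-144-3p. The other probes ran from -0.24 to 0.32 and from -0.46 to 0.19, and for all 3 the lowest array was PANC1 with miR-130-5p and the highest SK-MES-1 with miR-144-3p.

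SRP19 is needed for SRP54 to join the RNA. The probe of its main transcript ranged from -0.45 in MDA-MB-231 to 0.33 with miR-130-3p, with a median of -0.13. The PANC1 arrays lay on opposite sides of 0, at -0.24 with miR-130-5p and 0.33 with miR-130-3p, and the difference of 0.57 exceeded their combined error of 0.29, but 37% of passing probes differed as much between these arrays. The other SRP19 probe reads a transcript variant and was dim, with mock signals of 69.8 to 81.4, and its 8 ratios lay between -0.37 and -0.04. Of these, 2 were beyond the software error. SRP54, the signal sequence binding GTPase, ranged from -0.12 with si-PIR-2 to 0.27 with miR-130-5p, with a median of 0.07. Only the highest of its 8 ratios exceeded the software error.

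SRP68 and SRP72 bind 7SL as a dimer, but their ratios had different ranges. SRP68 was printed in 10 spots per array, of which 8 to 10 were kept after outlier spots were left out, and the SD between spots was 0.04 to 0.07. This measured spread was smaller than the modelled software error of the SRP68 ratios, 0.20 to 0.21. SRP68 had log2 ratios of 0.27 with si-PIR-2, -0.08 with si-PIR-3, -0.11 with miR-144-5p, -0.19 with miR-144-3p, -0.25 in SW1990, -0.17 in MDA-MB-231, -0.01 with miR-130-5p and 0.01 with miR-130-3p. It was above 0 on 2 of 8 arrays.

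SRP72 varied most of the protein genes. Its brighter probe had log2 ratios of 0.63 with si-PIR-2, 0.14 with si-PIR-3, -0.68 with miR-144-5p, -0.20 with miR-144-3p, -0.16 in SW1990, -0.14 in MDA-MB-231, -0.80 with miR-130-5p and 0.25 with miR-130-3p. The second probe, nearer the 3′ end of the transcript (from base 3784, against base 1547), had 0.81, 0.22, -0.55, -0.22, 0.07, 0.12, -1.85 and 0.40 in the same order. Both probes were highest with si-PIR-2 and lowest with miR-130-5p, and r between them was 0.90 over the 8 arrays.

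With miR-130-5p the second SRP72 probe was the single protein value past a log2 ratio of 1 in either direction, on an array where 5.77% of probes were below -1. Its mean signal was 191 in the mock and 78.2 in the transfected cells, whereas with miR-130-3p it was 189 in the mock and 426 in the transfected cells. The arrays of PANC1 differed by 2.25 for this probe (combined error 0.34) and by 1.06 for the brighter probe (combined error 0.30). As large a difference was found for 0.684% and 11.8% of passing probes, respectively. With miR-130-5p the value of the second probe was -1.21 with normexp and loess, -1.58 with no background correction and loess, and -0.99 with normexp and median centring. The brighter probe had -0.76, -0.80 and -0.30 in these settings. The probes themselves differed by 1.05 on this array.

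**Figure D4:**
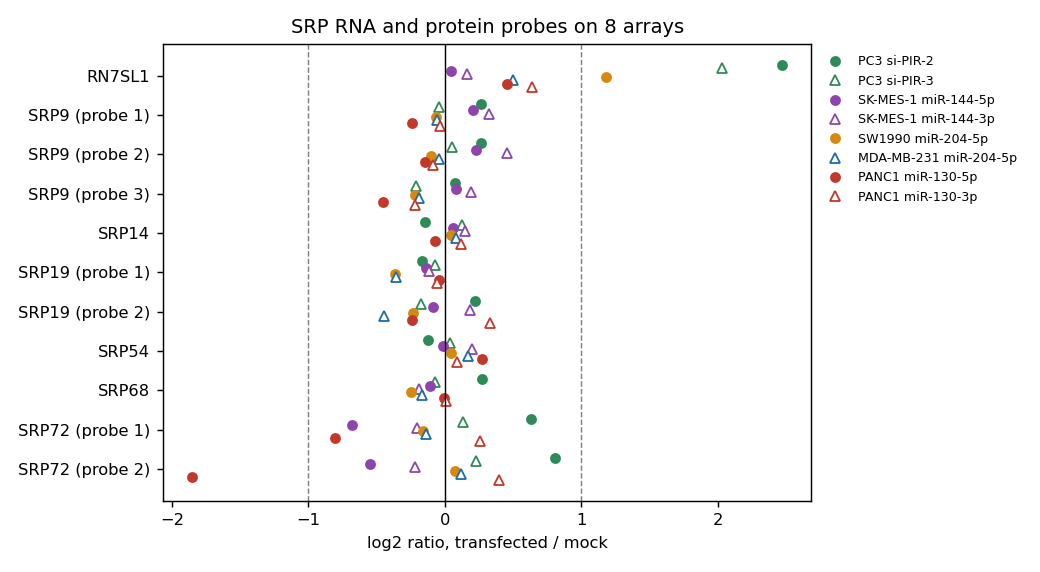
Log2 ratio of transfected over mock for the 11 member probes on 8 arrays, one row per probe and one symbol per array. Dashed lines mark log2 ratios of 1 and -1. RN7SL1 lies above 0 on all arrays, most protein probes lie near 0, and the second SRP72 probe reaches -1.85 with miR-130-5p.

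In the mock, the protein genes differed less between lines than RN7SL1. The range between lines was 0.52 and 1.12 for the SRP72 probes, 0.55 and 1.14 for SRP19, 0.75 for SRP54, 0.90 for SRP68, 0.96 for the brightest SRP9 probe and 1.08 for SRP14, against 2.53 for RN7SL1 (log2 level) and a median of 1.35 over passing probes. PC3 had the highest mock level of SRP9, SRP14, SRP68 and SRP72, and the lowest of RN7SL1, although for the second SRP72 probe SK-MES-1 was within 2 pooled SD of it. SK-MES-1 had the lowest level of all SRP9 probes, of the main SRP19 probe and of SRP68.

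The genes around the particle were taken as lists, each gene read by its brightest passing probe, and are compared with all 18733 genes that passed, whose mean log2 ratio over the 8 arrays had a median of 0.03. Of all gene values, 2.22% were above 1 and 1.94% below -1, and 4.78% of genes were above 0 and 3.07% below 0 on all 8 arrays. The SRP receptor and translocon, which receive the ribosome at the membrane, had 13 genes that passed, with a median of 0.03. Of their 104 values, 2 were above 1 and 2 below -1, and no gene was above 0 on all arrays. These 4 calls fell to 0 with normexp and loess and to 2 with no background correction and loess.

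SRPR, the receptor subunit that binds SRP54, had a mean log2 ratio of 0.29, from -0.10 with miR-144-3p to 0.75 with si-PIR-2. TRAM2, a relative of the translocating chain-associated protein, had the highest mean, 0.32, from -0.12 with miR-144-3p to 1.01 with miR-130-3p. The lowest means were those of SSR4, a subunit of the translocon-associated complex (-0.14, below 0 on all 8 arrays), and SEC61A1, the pore of the translocon (-0.09, from -0.61 to 0.50). None of the 13 was above 1 on both si-PIR arrays.

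The signal peptidase and the oligosaccharyltransferase, which process the chain in the lumen, had 13 genes that passed, none with a value past 1 or -1, and a median of 0.02. The highest means were those of the signal peptidase subunits SPCS2 (0.22) and SPCS3 (0.13), and the lowest those of STT3B (-0.21), a catalytic subunit of the oligosaccharyltransferase, and SEC11C (-0.17), a catalytic subunit of the signal peptidase. Of this list, only SPCS2 was above 0 on all 8 arrays. The route for tail-anchored proteins, which does not use SRP, had 7 genes with a median of 0.10. CAMLG, a membrane receptor of that route, had the highest mean (0.37, from -0.46 with miR-130-3p to 1.29 with miR-130-5p), followed by the chaperone SGTA (0.15). The value of CAMLG with miR-130-5p was 0.24 with normexp and loess and 0.58 with no background correction and loess, and its probe was not above background in both channels of every array. BAG6 (-0.21, below 0 on all arrays) and GET4 (0.03) had the lowest.

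The unfolded protein response, induced when folding in the endoplasmic reticulum is disturbed, had 20 genes with a median of 0.03, and 3 of 160 values were above 1 and 2 below -1, of which 2 in all were left with normexp and loess. DNAJB9, a co-chaperone of the lumen, held all 3 high values, 1.05 in SW1990, 1.08 in MDA-MB-231 and a value just above 1 with miR-130-3p. With normexp and loess they were 0.99, 0.97 and 0.96. ERN1, the sensor that splices XBP1, had a mean of 0.33, and XBP1 itself -0.18. ASNS, which makes asparagine, had the lowest mean (-0.33) and both low values, -1.23 with si-PIR-2 and -1.07 with miR-130-5p.

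The other small noncoding RNAs included those of the spliceosome, the vault and RNase P. Of 36 listed, 17 were on the array and passed, and 6 of these 17 (35.3%) were above 0 on all 8 arrays: RN7SK, VTRNA1-2, RNU2-1, RNU11, RNU12 and RNU4ATAC. The median of the mean ratios was 0.28. Of 136 values, 8 were above 1 (5.88%, against 2.22% of all gene values) and 1 below -1. These 9 calls fell to 4 both with normexp and loess and with no background correction and loess. The list also held 3 host genes of small nucleolar RNAs, SNHG1, SNHG5 and GAS5. Most values above 1 came from the miR-130-5p array, where 5.04% of passing probes were above 1. They were those of RNU2-1, RNU11, RNU4ATAC and the host genes SNHG1 and GAS5. The rest were VTRNA2-1 with si-PIR-2, and SCARNA2 with si-PIR-3 and in SW1990. The highest means were those of RNU11 (0.51, from 0.17 with si-PIR-3 to 1.03 with miR-130-5p) and RNU4ATAC (0.47, from 0.01 with miR-130-3p to 1.64 with miR-130-5p), both of the minor spliceosome. The lowest were those of the vault RNA VTRNA1-1 (-0.26, with -1.51 for si-PIR-2 and 0.30 for si-PIR-3) and of TERC, the telomerase RNA (-0.02).

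The place of RN7SL1 among these RNAs differed between arrays. None of the 17 exceeded it on 4 arrays, those of si-PIR-2, si-PIR-3, MDA-MB-231 and miR-130-3p, where the medians of the 17 were 0.25, 0.22, 0.07 and 0.09. The highest in MDA-MB-231, RMRP at 0.49, and with miR-130-3p, VTRNA2-1 at 0.59, were within the software error of RN7SL1. In SW1990, 1 of the 17 exceeded it, and with miR-144-3p 8 did. With miR-130-5p the median of the 17 was 0.78 and 11 exceeded RN7SL1, and with miR-144-5p the median was 0.27 and 15 exceeded it. None of the 17 was above 1 on both si-PIR arrays.

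**Figure D5:**
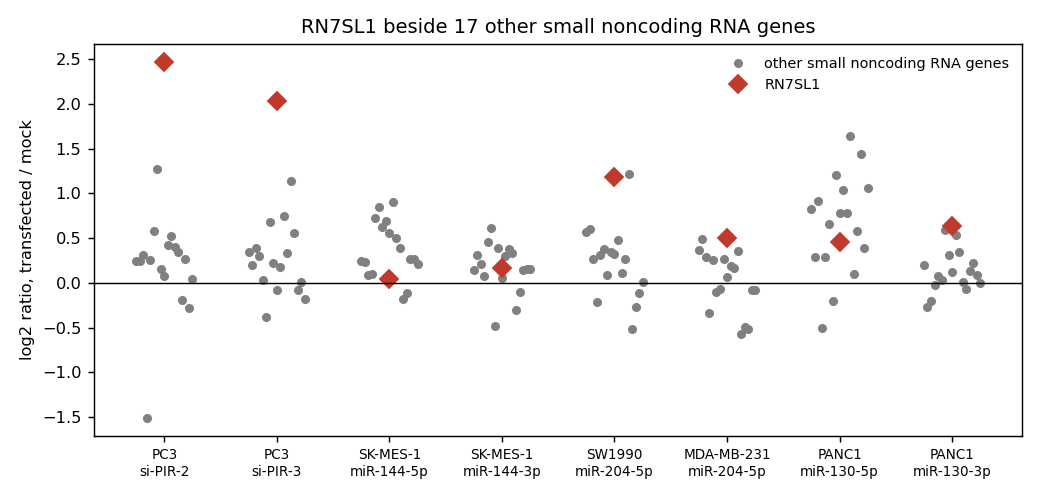
Log2 ratio of RN7SL1 (diamonds) and of 17 other small noncoding RNA genes (grey points) on each array. RN7SL1 lies above all 17 on the PC3 and MDA-MB-231 arrays and with miR-130-3p, below 1 of them in SW1990, and within their range in SK-MES-1 and with miR-130-5p.

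The long nuclear noncoding RNAs had 6 genes that passed, with a median of 0.01. MEG3, an imprinted RNA, had a mean of 0.42 and was above 1 on both si-PIR arrays (1.21 and 2.33). Its probe was dim, and these values were 0.04 and 0.11 with normexp and loess, and 0.16 and 0.29 with no background correction and loess. KCNQ1OT1, also imprinted, had 0.33 and was above 0 on all arrays. MALAT1 had 0.01, with 1.26 for miR-130-5p, and NEAT1, the RNA of paraspeckles, had -0.04.

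The RNA polymerase III machinery, which transcribes 7SL, had 29 genes with a median of 0.06, and 1 of 232 values was above 1 and 2 below -1. POLR3G, a polymerase subunit, had the highest mean (0.44, from -0.36 with si-PIR-3 to 0.94 in SW1990), followed by SNAPC4 (0.35), a subunit of a promoter binding complex. POLR3GL, which takes the place of POLR3G in another form of the enzyme, had the lowest mean (-0.23), followed by MAF1, the repressor of the polymerase (-0.21, with 0.02 for si-PIR-2 and -0.26 for si-PIR-3). The binders and exporters of small RNAs had 11 genes with a median of -0.12, and 1 of 88 values was below -1 and none above 1. RAN (0.19) and XPO1 (0.10), which carry cargo through the nuclear pore, had the highest means, and MEPCE (-0.23), which caps the 7SK RNA, and LARP1 (-0.21) the lowest.

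The genes with the pattern most like RN7SL1 were taken over the 8 arrays, among 18732 others. The arrays share the dye direction, and those of the same line may share mock RNA. By Pearson correlation, 4 of the 5 highest were ATP1A4 (r = 0.98), SUCLG2, the unnamed transcript of probe A_33_P3390823 (r = 0.96 each) and CAPZB (r = 0.95). All 4 were above 0 on both si-PIR arrays and below 0 on every other array, whereas RN7SL1 was above 0 on all 8. By the smallest root mean square difference in log2 ratio they were LOC400756 (0.38), lnc-CLDN24-1 (0.44), DICER1 (0.48), lnc-RPS27L-1 (0.51) and ENST00000584952 (0.55). With normexp and loess, 1 of these 5 was among the 5 closest, and 3 of the 5 with the highest correlation remained among the highest. DICER1, the enzyme that cuts miRNA precursors, had log2 ratios of 2.09 with si-PIR-2, 1.76 with si-PIR-3, 1.33 in SW1990, 1.29 in MDA-MB-231 and -0.40 with miR-130-5p. Of the SRP proteins, SRP72 ranked 456th by correlation with RN7SL1 (r = 0.75) and SRP54 ranked 17620th (r = -0.65).

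No probe of another gene shared 20 or more bases with the RN7SL1 probe on either strand. The longest shared run was 19 bases, with the probe of INADL. INADL, which was looked at after its values were known, had log2 ratios of 0.43 with si-PIR-2, 0.40 with si-PIR-3, 0.14 with miR-144-5p, 0.18 with miR-144-3p, 0.37 in SW1990, 0.39 in MDA-MB-231, 0.38 with miR-130-5p and 0.41 with miR-130-3p. These were all above 0 and lowest in SK-MES-1, as for RN7SL1, but on the si-PIR arrays they lay far below it. Of all passing probes, 4.63% were above 0 on all 8 arrays, and nothing is read from this likeness.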

How the data were processed

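Total RNA was extracted with Trizol and labelled with the Agilent two-color low input linear amplification kit. The files deposited by the authors were scanner output of Agilent Feature Extraction 11.5.1.1 (design 072363, hg19 annotation), with intensity values for each dye and a log10 ratio of Cy5 over Cy3 after background subtraction and LOWESS dye normalization, and a deposited value table with the same log10 ratios. The software error assumes a relative error of 0.1 in each channel.

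Ratios were multiplied to log2, and unflagged spots of a probe were averaged. In all, 6 spots were left out among the members, all of SRP68, and no member spot was saturated. A log2 ratio past 1 or -1 counted as a call. Alternatives used limma 3.58.1 (R 4.3.3), with a normexp offset of 50. Other steps used Python 3.11.15 and were tested on simulated data. The 2 si-PIR arrays carried different siRNAs, and all other conditions had 1 array, so no test was made and the number of arrays limits the precision.

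The members and gene lists were chosen with earlier results of these data known. Named genes were all member probes, PIR, the 2 highest and 2 lowest mean ratios of each list, and the 5 genes most like RN7SL1 by each of 2 measures, and other names were chosen after their values were seen. A gene that the rule names and a probe sequence are not reported here. RefSeq matched all 7 members.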

Additional observations from a re-analysis of the deposited data

Results flagged for a closer look

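For 4 probes, 1 condition lay beyond its software error below 0 and another beyond its error above 0. The differences themselves were not tested, since most conditions had 1 array. The second SRP72 probe differed by -2.37 (log2 ratio) between PANC1 with miR-130-5p (-1.85) and the mean of the si-PIR arrays of PC3 (0.52). The brighter SRP72 probe differed by -1.06 between PANC1 with miR-130-5p (-0.80) and with miR-130-3p (0.25). The main SRP19 probe differed by -0.78 between MDA-MB-231 with miR-204-5p (-0.45) and PANC1 with miR-130-3p (0.33). The SRP9 probe nearest the 5′ end differed by -0.56 between PANC1 with miR-130-5p (-0.24) and SK-MES-1 with miR-144-3p (0.32).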

How the results depend on the processing

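Under normexp with loess, no background correction with loess, and subtraction of the array median, RN7SL1 moved by less than its error on every array. Under normexp with median centring the si-PIR mean was 3.30, and the ratio was 0.99 with miR-144-5p, 0.93 with miR-144-3p, 2.21 in SW1990, 1.25 in MDA-MB-231, 1.27 with miR-130-5p and 1.64 with miR-130-3p, and 9 member probes in place of 1 lay above 0 on all 8 arrays. This setting makes no correction for the intensity of a spot. Leaving out 1 si-PIR array at a time gave 2.03 to 2.47. The mock range of RN7SL1 between lines was 2.36 in place of 2.53 under normexp, loess and Aquantile. The number of probes above 1 on both si-PIR arrays was 75. It was 7 with normexp and loess, 11 with no background correction and loess, 642 with median centring, 16 where both channels had to be above background, 452 with no filter, 725 at a threshold of 0.5 and 16 at 1.5. Of 156 recomputed values that their setting could move, 98 stayed within their error or within 1.5 times their count. No recomputed member value beyond its error changed sign, but for the protein genes these were mostly means over the 8 arrays. Ratios of single arrays did change sign with median centring, where 9 probes lay above 0 on all arrays. The main SRP19 probe in MDA-MB-231, -0.45 with an error of 0.21 by the scanner ratio, was among those that turned positive. The deposited value table holds the same ratios as the scanner files and could move none. With median centring the number of values past 1 or -1 went from 9 to 31 among other small noncoding RNAs, from 4 to 23 for the SRP receptor and translocon, and from 5 to 37 for the unfolded protein response. The values of single list genes and of the SRP72 probes under other settings were added after the data were examined. No paired analysis was possible because no result comes from a test and the conditions share fewer than 2 replicate numbers. Each ratio rests on 1 array, and for most members on 1 spot, so the software error does not cover the spread between cultures.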
